A study of Homo sapiens with 18 samples.

Results

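Histone genes were examined in 2 Ewing sarcoma cell lines, TC32 and TC71, exposed to the small molecule YK-4-279 or selected for resistance to it. They were taken as every gene on the array whose single gene symbol began with HIST1H to HIST4H, H1F, H2AF or H3F, leaving out probe sets with an alignment on chromosome 13 or 15. The rule gave 61 genes of the 12750 genes measured, read by 74 probe sets; 1 histone probe set was left out for its alignment, and 11 that name several genes were not members. The symbols are those of the array annotation, and current names are given in brackets (HIST2H2BE is now H2BC21).

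Ewing sarcoma is a tumour of bone and soft tissue driven in most cases by the EWS-FLI1 fusion protein, and YK-4-279 was developed as a disruptor of the complex that EWS-FLI1 forms with RNA helicase A. Each line was sampled in 3 states with 3 arrays each, giving 18 arrays in 6 groups. Parental cells were untreated and are labelled sensitive. A second group was the parental line after 72 h with 3 µM YK-4-279. The third held cells selected over 7 months in rising concentrations up to 3 µM, labelled C1, C4 and CP in TC32 and C3, C4A and C5 in TC71; each of these arrays comes from a separately named selected culture (called a clone here, as in the culture protocol), so their spread holds differences between clones. Whether the clones were kept in the compound up to harvest is not given in the sources used here. No genotype, age or further agent is given for any group.

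Histone proteins package DNA: 2 copies each of H2A, H2B, H3 and H4 form the nucleosome core and a linker histone, H1, binds where DNA enters and leaves it. Most histone genes are replication-dependent. They sit in clusters, are transcribed mainly in S phase, and their mRNAs end in a stem-loop bound by SLBP instead of a poly(A) tail. Replacement variants (H2AFZ, H3F3B and others) are expressed through the cell cycle from ordinary polyadenylated mRNAs, and a few replication-dependent genes are also known to make polyadenylated transcripts, mainly outside S phase. The labelling kit copies RNA from its poly(A) tail, so these arrays read polyadenylated histone transcripts in the first place.

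Of the 61 genes, 48 lie on chromosome 6 and 4 on chromosome 1. Classes were assigned from the gene symbol alone, HIST genes as replication-dependent and H1F, H2AF and H3F genes as variants. By class there were 6 linker H1 genes, 11 H2A, 15 H2B, 10 H3 and 10 H4 replication-dependent genes, and 9 variants (2 of H1, 6 of H2A and 1 of H3). Probe sets with the suffix _x_at or _s_at, which can match more than 1 transcript, read 22 of the genes. The probe sets of HIST1H2BE [H2BC6] align at 8 places, and those of HIST1H2BF [H2BC7], HIST1H2BH [H2BC9] and HIST1H2BI [H2BC10] at 6 places each, so these 4 near-identical H2B genes are not separate readings.

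The promoters of 4 H2B genes that the results turn on are shown to compare them for the octamer ATTTGCAT, bound by OCT1 and required for S phase transcription of H2B genes; 3 of the 4 hold it. The windows run from 250 bases before to 50 bases after the annotated start, from RefSeq on GRCh38.p14, and 56 of the 61 genes had an entry. Capitals mark the octamer on the printed strand. HIST2H2BE lies at chr1:149886633-149886932 (minus strand), HIST1H2BD [H2BC5] at chr6:26157871-26158170 (plus strand), HIST1H2BC [H2BC4] at chr6:26123877-26124176 (minus strand) and HIST1H2BK [H2BC12] at chr6:27146809-27147108 (minus strand).
HIST2H2BE: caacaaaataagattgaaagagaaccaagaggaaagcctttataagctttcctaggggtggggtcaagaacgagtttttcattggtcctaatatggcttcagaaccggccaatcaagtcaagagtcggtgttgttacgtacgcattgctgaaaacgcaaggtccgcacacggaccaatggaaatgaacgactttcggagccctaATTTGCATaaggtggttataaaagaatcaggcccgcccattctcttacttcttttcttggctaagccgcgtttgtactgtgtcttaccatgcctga
HIST1H2BD: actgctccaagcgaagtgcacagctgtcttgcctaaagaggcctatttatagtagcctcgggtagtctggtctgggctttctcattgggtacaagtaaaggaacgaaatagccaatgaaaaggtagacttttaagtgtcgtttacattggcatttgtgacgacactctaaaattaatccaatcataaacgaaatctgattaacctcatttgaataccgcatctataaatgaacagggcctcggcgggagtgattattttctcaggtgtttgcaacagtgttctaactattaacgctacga
HIST1H2BC: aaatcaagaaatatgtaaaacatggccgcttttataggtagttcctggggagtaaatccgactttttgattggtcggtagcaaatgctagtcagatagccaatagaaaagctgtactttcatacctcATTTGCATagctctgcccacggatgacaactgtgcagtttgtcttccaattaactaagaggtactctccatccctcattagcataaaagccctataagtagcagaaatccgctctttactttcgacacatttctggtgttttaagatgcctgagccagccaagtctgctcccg
HIST1H2BK: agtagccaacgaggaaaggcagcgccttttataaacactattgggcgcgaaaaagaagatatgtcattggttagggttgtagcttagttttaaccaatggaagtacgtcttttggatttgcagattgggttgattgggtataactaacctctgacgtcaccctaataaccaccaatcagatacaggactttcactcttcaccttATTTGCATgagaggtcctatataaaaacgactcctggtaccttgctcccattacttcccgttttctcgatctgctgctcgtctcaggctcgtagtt

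The octamer began 46 bases before the start in both HIST2H2BE and HIST1H2BK and 123 bases before it in HIST1H2BC. It was not found on either strand of the HIST1H2BD window, so capitals are absent there. Searched on both strands, the octamer was present in 12 of 15 H2B promoters, 7 of 11 H2A promoters, the H3F3B promoter and none of the H1, H3 and H4 promoters, against 492 of 27303 promoters of all genes (1.8%). The CCAAT box (letters CCAAT) was in all 15 H2B promoters and 47 of 56 histone promoters, against 35.7% of all promoters. The TATA box (letters TATAAA) was in 11 of 15 H2B promoters and 37 of 56 histone promoters, against 11.95%. HIST1H2AC [H2AC6] and HIST1H2BC are transcribed away from each other, and 255 of the 300 bases of their windows are the same stretch.

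The deposited values are log2 signals relative to each probe set's median over the 18 arrays. They show differences between arrays and carry no absolute level, so no gene's level can be set against another's, and a marker cannot be called present or absent. A gene that is not expressed appears flat. By a limit of 0.05 on the SD over the arrays, 23 of the 61 histone genes were flat (37.7%, against 31.4% of all genes) and 38 varied. The flat genes were 4 of 6 in H1, 4 of 11 in H2A, 4 of 15 in H2B, 5 of 10 in H3 and 6 of 10 in H4, while all 9 variants varied. In these bulk cultures a smaller share of cells expressing a gene and less RNA per cell cannot be told apart.

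**Figure D1:**
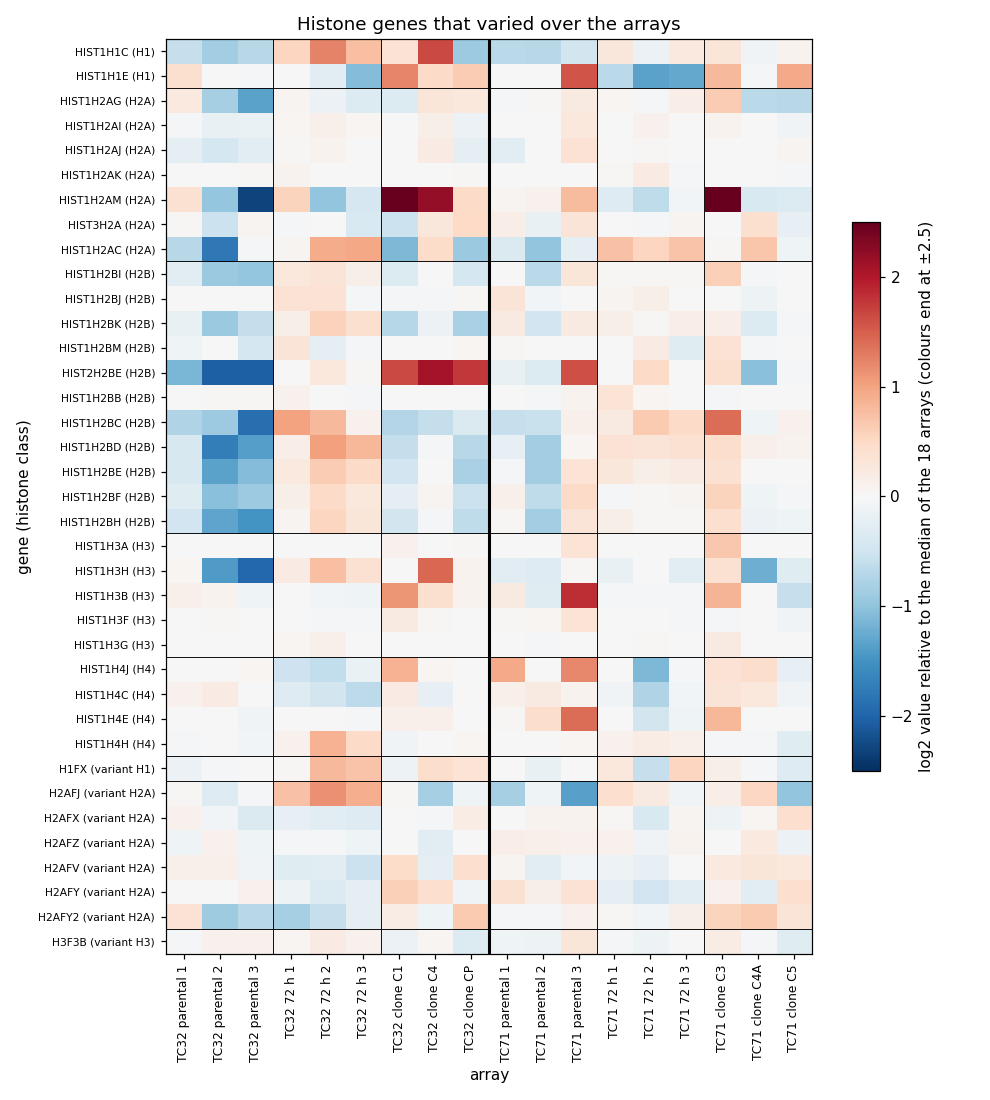
Relative log2 value (colour, ending at ±2.5) of 37 of the 38 histone genes that varied, in rows by class, in each of the 18 arrays, in columns by line and state. Most H2B rows are blue in TC32 parental replicates 2 and 3 and white to red in the TC32 72 h arrays, and HIST2H2BE is red in all 3 TC32 clones.

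The heatmap of the varying histone genes shows that single arrays carried much of the spread. TC32 parental replicates 2 and 3 held the lowest value of 7 and 8 of the 29 varying replication-dependent genes, whereas TC32 parental replicate 1 held none. TC71 parental replicate 3 was highest for 7 of the 29, and TC71 clone C3 for 8. The counts of TC32 parental replicates 2 and 3 and of clone C3 include near-identical H2B genes that are not separate readings. The same counts over all genes are not given here, so whether this spread is particular to histone genes was not tested. Over the 3159 probe sets with an SD above 0.5, TC32 parental replicate 1 lay closest to an array of the other line, TC71 parental replicate 1 (root mean square difference 0.7, against a mean of 1.09 to its own group). Without this array the median H2B difference at 72 h in TC32 moved from 0.95 to 1.14, with 12 of 15 higher in both cases, and the S phase list described further on moved from -0.50 to -0.45. The single genes were each refitted without it, and those whose call changed are named with the comparison.

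After 72 h of YK-4-279 in TC32, 4 of the 15 H2B genes rose, HIST1H2BD, HIST1H2BC, HIST1H2BE and HIST1H2BH, by 2.63- to 3.58-fold, and no histone gene fell. The last 2 are among the near-identical genes that are not separate readings. Both probe sets of HIST1H2BD also carry the suffix _x_at, and whether it shares signal with those genes was not tested. Without _x_at and _s_at probe sets, 1 histone gene was called. The test was limma's on all 12750 genes with Benjamini-Hochberg adjustment and a threshold of 0.05, with 3 arrays a group. The 4 rises were all in the H2B class, and 145 of all genes (1.14%) rose and 136 (1.07%) fell, 2.2% in all. Each of the 4 calls was lost in at least 1 setting described at the end. Leaving out TC32 parental replicate 2 or 3, or TC32 72 h replicate 2 or 3, left no histone gene past the threshold. Leaving out TC32 parental replicate 1 gave 8, the same 4 with HIST1H2BF, HIST1H2BI, HIST1H2BK and HIST1H3H. The share of all genes called without that array is not given here.

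HIST1H2BD encodes an H2B protein and is known to make a polyadenylated transcript. Its relative log2 values were -0.40, -1.73 and -1.37 in the TC32 parental arrays and 0.17, 1.03 and 0.83 at 72 h. The groups did not overlap, and replicate 1 was the highest of the parental arrays and the lowest of the treated ones. The difference was 1.84 ± 0.33 (SE, n = 3 and 3; limma adjusted p = 0.0151), and it ranged from 1.56 to 2.23 when each array was left out.

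HIST1H2BC, the H2B gene that shares its promoter with HIST1H2AC, read -0.75, -0.90 and -1.88 in TC32 parental cells and 1.01, 0.81 and 0.10 at 72 h. The treated arrays were all higher, by 1.82 ± 0.40 (SE; limma adjusted p = 0.0352). HIST1H2BE and HIST1H2BH, read by multiply aligned probe sets, rose by 1.40 ± 0.30 (adjusted p = 0.0341) and 1.41 ± 0.31 (adjusted p = 0.0368) in limma. The related HIST1H2BF and HIST1H2BI differed by 1.06 and 0.96 without passing the threshold (adjusted p = 0.0683 and 0.0667 in limma).

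Over the H2B class, 12 of 15 genes were higher at 72 h in TC32, the median difference was 0.95 on the log2 scale, and in 8 genes the groups of arrays did not overlap. Both counts include the 4 near-identical H2B genes, which are not separate readings. The median over all genes was 0.00, with groups apart and higher in 10.4% of them. In the other replication-dependent classes, which hold many flat genes, the medians were 0.00 in H1, 0.02 in H2A, 0.00 in H3 and -0.01 in H4. Over the genes that varied, which the limit picks from the same arrays, the medians were 1.06 in 11 H2B genes, 0.35 in 7 H2A, 0.495 in 2 H1, 0.01 in 5 H3 and -0.21 in 4 H4 genes, as a description. Counted over the 61 histone genes, groups were apart in 21, against 20.2% of all genes. Among genes with an SD of at least 0.05 this was 21 of 38, against 29.2%.

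**Figure D2:**
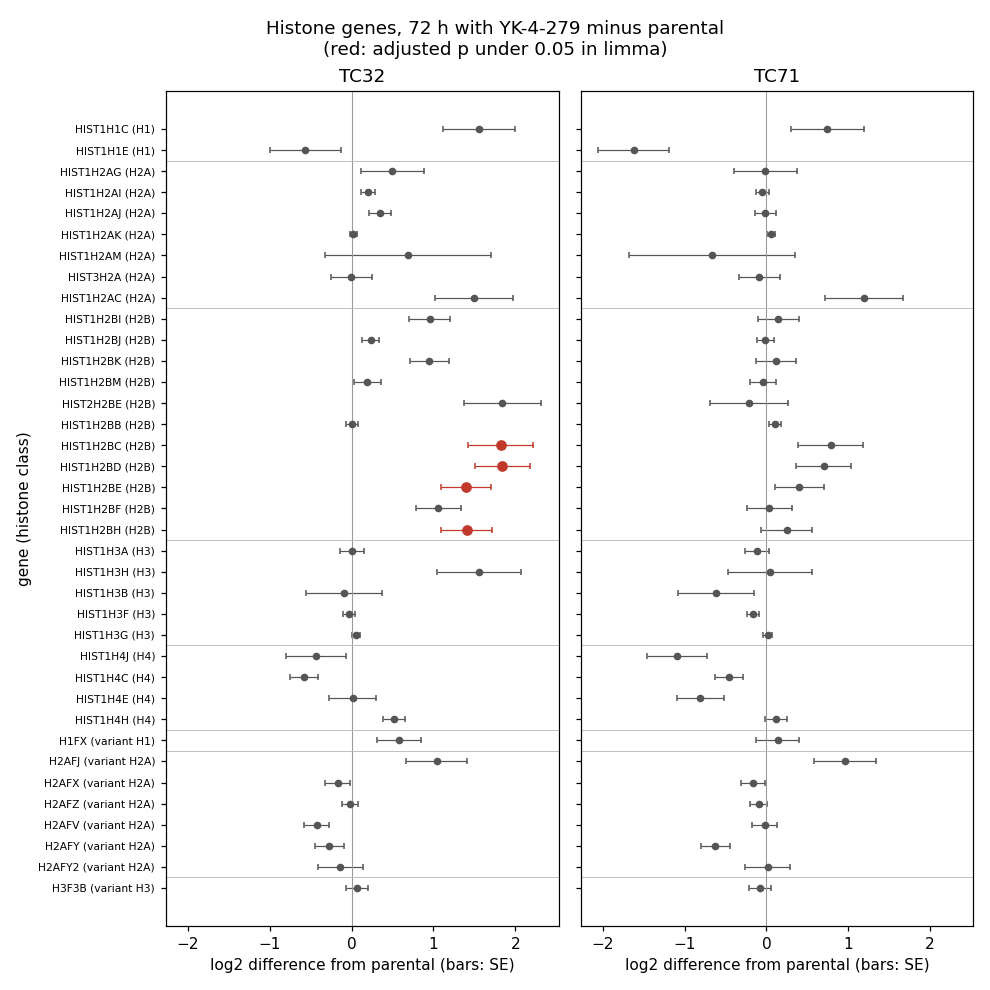
Log2 difference (points, with SE bars) between 72 h and parental arrays for 37 of the 38 varying histone genes in TC32 (left) and TC71 (right), ordered by class. Red points pass the threshold: HIST1H2BC, HIST1H2BD, HIST1H2BE and HIST1H2BH in TC32, and none in TC71.

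The 6 replication-dependent genes listed for polyadenylated transcripts (HIST1H1C, HIST1H2AC, HIST1H2BC, HIST1H2BD, HIST1H2BK and HIST2H2BE) were listed with results of these data known, so what they share at 72 h in TC32 describes the choice and is not evidence for it. Their median difference was 1.69 (1.83 without TC32 parental replicate 1), and 2 of the 6 passed the threshold. The groups were apart and higher in all 6, a share that was 10.4% over all genes.

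HIST2H2BE encodes an H2B of the small cluster on chromosome 1. It read -1.15, -2.04 and -2.04 in TC32 parental cells and 0.01, 0.26 and 0.03 at 72 h. The treated arrays lay close together and above every parental array, and the difference of 1.84 ± 0.47 (SE) had an adjusted p of 0.063 in limma. HIST1H1C [H1-2], a linker histone, read -0.58, -0.87 and -0.70 against 0.55, 1.24 and 0.74. Its groups were far apart for their spread, but its clones varied widely, and the SE shared over all 6 groups gave 1.56 ± 0.44 with an adjusted p of 0.0921 in limma; fitted on the 6 arrays of this comparison alone, it was the 1 histone gene past the threshold.

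HIST1H2AC, an H2A gene, read -0.69, -1.79 and -0.04 in TC32 parental cells and 0.07, 0.94 and 0.97 at 72 h. The highest parental array lay just below the lowest treated one (difference 1.495 ± 0.473, limma adjusted p = 0.128). HIST1H2BK, an H2B gene, differed by 0.95 (adjusted p = 0.0617 in limma), with groups apart. HIST1H3H [H3C10], an H3 gene, differed by 1.56 (adjusted p = 0.143), again with groups apart.

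**Figure D3:**
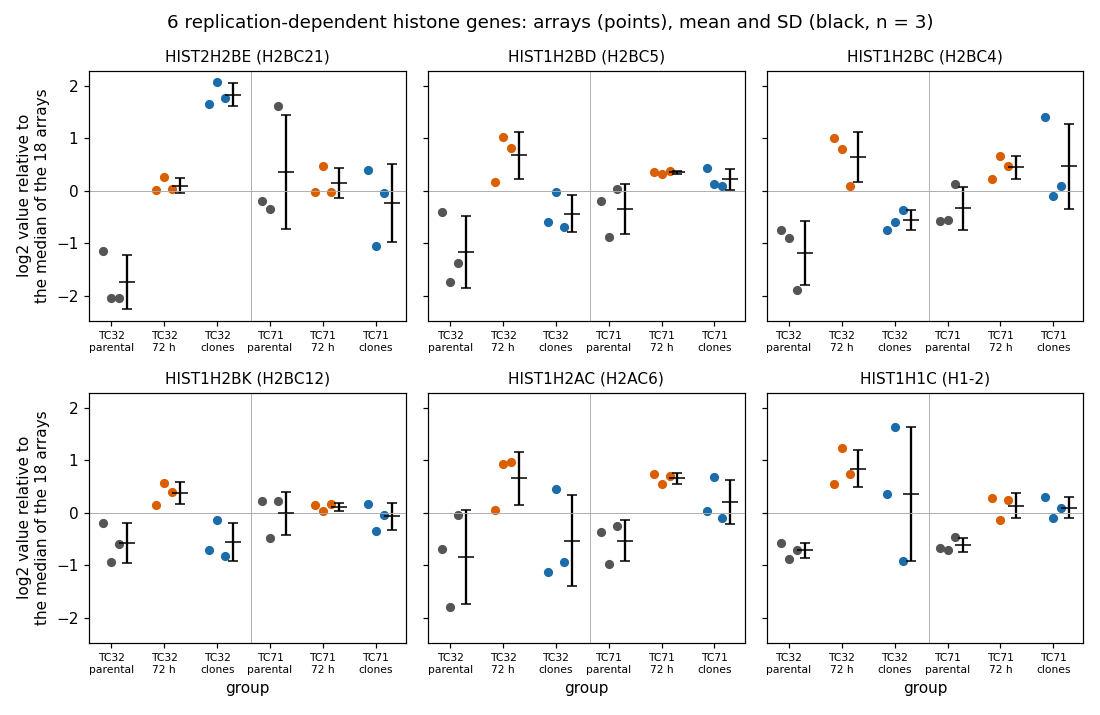
Relative log2 value of the 6 listed replication-dependent genes in each array (points) by line and state, with mean and SD (black, n = 3). HIST2H2BE is low in TC32 parental cells, near 0 at 72 h and highest in the TC32 clones, while the other 5 genes have their highest TC32 mean at 72 h.

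Among the variants in TC32, H2AFJ [H2AJ], an H2A variant known to accumulate in senescent cells, read 0.02, -0.32 and -0.02 in parental cells and 0.73, 1.14 and 0.91 at 72 h. All treated arrays were higher, with a difference of 1.04 (limma adjusted p = 0.189).

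The following variants differed less. H1FX [H1-10] differed by 0.58, H2AFV [H2AZ2] by -0.43, H2AFY [MACROH2A1] by -0.27, H2AFX [H2AX, the variant phosphorylated at DNA breaks] by -0.17, H2AFZ [H2AZ1] by -0.02 and H3F3B by 0.07. The figures of H2AFX and H3F3B are means over probe sets that disagreed. Those of H3F3B differed by 0.321, 0.329, -0.255 and -0.115, and those of H2AFX by -0.192, -0.005, -0.006 and -0.48. None of the 9 variants passed the threshold in limma, although 4 had an unadjusted p under 0.05, as did 20 of the 61 histone genes and 14.8% of all genes.

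The histone genes lowest at 72 h in TC32 with groups apart were H4 genes. HIST1H4C [H4C3] read 0.11, 0.20 and 0.01 in parental cells and -0.32, -0.46 and -0.66 at 72 h. Each treated array was below each parental one (log2 difference -0.59 ± 0.17, limma adjusted p = 0.103). HIST1H4J [H4C11] differed by -0.44 (adjusted p = 0.787). HIST1H4H [H4C8] differed by 0.52 (adjusted p = 0.069), and its 2 probe sets disagreed in every comparison with the TC32 72 h arrays.

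In TC71 no histone gene passed the threshold after 72 h, and 9 of 61 had an unadjusted p under 0.05 (14.8%, against 10.6% of all genes). Across the array limma called 19 genes (0.149%). The counts for TC71 72 h minus parental depend on the processing: 3 histone genes and 476 of all genes were called after quantile normalization, 3 and 447 with the replicate number as a block, and 1 and 290 with the compared groups fitted alone. The groups of arrays were apart in 13 of 61 histone genes, against 25.2% of all genes. The H2B median was 0.04, against 0.95 in TC32, and the list of 6 had a median of 0.72, with 5 of 6 higher.

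HIST1H2AC read -0.36, -0.98 and -0.25 in TC71 parental cells and 0.73, 0.54 and 0.71 at 72 h. The groups did not overlap (difference 1.19 ± 0.47, limma adjusted p = 0.368).

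H2AFJ differed by 0.96 and HIST1H2BC by 0.79, both without overlap. HIST1H1C and HIST1H2BD differed by 0.75 and 0.70, likewise without overlap. HIST2H2BE differed by -0.21 ± 0.47, with TC71 parental replicate 3 at 1.62 and the other parental arrays at -0.19 and -0.34.

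The largest difference of a histone gene in TC71 at 72 h was negative. HIST1H1E [H1-4], a linker histone of the chromosome 6 cluster, read 0.00, -0.01 and 1.57 in parental cells and -0.67, -1.35 and -1.28 at 72 h. All treated arrays were lower, while 1 parental array stood far above the other 2 (difference -1.62 ± 0.43, limma adjusted p = 0.172). The H4 genes HIST1H4J, HIST1H4E [H4C5] and HIST1H4C differed by -1.09, -0.81 and -0.45, with overlap in the first and none past the threshold. Single arrays carried much of this: without TC71 72 h replicate 2 HIST1H4J differed by -0.72 and HIST1H4C by -0.23, and without TC71 parental replicate 3 HIST1H4E differed by -0.42. H2AFY, the macroH2A variant associated with silent chromatin, differed by -0.63 (adjusted p = 0.188), with groups apart.

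Whether the 72 h change differed between the lines was tested as an interaction. No histone gene passed (48 of all genes did, 0.376%), and the 7 with an unadjusted p under 0.05 (8% of all genes had one) were all H2B genes with larger changes in TC32: HIST2H2BE, HIST1H2BD, HIST1H2BE, HIST1H2BF, HIST1H2BH, HIST1H2BI and HIST1H2BK. Of these, HIST1H2BE, HIST1H2BF, HIST1H2BH and HIST1H2BI are not separate readings, and HIST1H2BD is read only by _x_at probe sets. The difference of change was 0.83 in HIST1H2BK and 2.05 in HIST2H2BE (adjusted p = 0.532 and 0.339 in limma). With 4 arrays left out, which are listed at the end, HIST1H2BE and HIST1H2BH passed, and these 2 are not separate readings. The share of all genes called without those arrays is not given here.

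In the resistant clones of TC32, 1 histone gene rose against parental cells: HIST2H2BE. The 3 clones read 1.65, 2.07 and 1.78, against -1.15, -2.04 and -2.04 in parental cells. The clones lay within a narrow range above all other TC32 arrays. The difference was 3.57 ± 0.47 on the log2 scale (SE, n = 3 and 3), an 11.9-fold rise with a limma adjusted p of 0.00175, while 407 of all genes rose (3.19%) and 398 fell (3.12%), 6.31% together. It passed with each of the 6 arrays left out in turn, where the difference ran from 3.42 to 3.87 and the highest adjusted p was 0.014. Its probe set is the single one for the gene and carries the suffix _s_at, so no other probe set checks it.

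**Figure D4:**
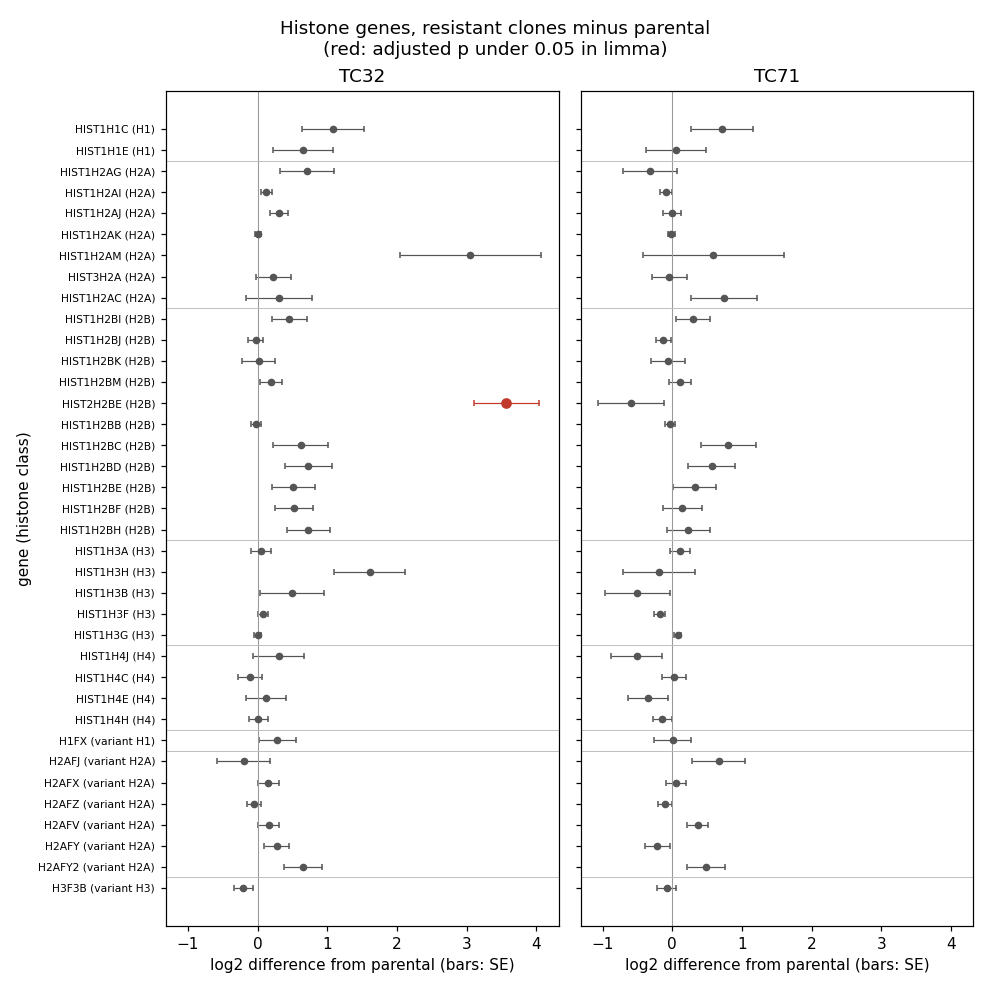
Log2 difference (points, with SE bars) between resistant clones and parental cells for 37 of the 38 varying histone genes in TC32 (left) and TC71 (right). HIST2H2BE in TC32, at 3.57, is the 1 red point, past the threshold; in TC71 it lies at -0.59.

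In TC71 the same gene read 0.39, -1.04 and -0.03 in the clones and -0.19, -0.34 and 1.62 in parental cells, with overlap (difference -0.59 ± 0.47, limma adjusted p = 0.759). The interaction, the resistant change in TC32 minus that in TC71, was 4.16 ± 0.67 (17.9-fold; limma adjusted p = 0.0269), and it was the 1 histone gene among 30 genes called (0.235%). An unadjusted p under 0.05 was found for 3 of 61 histone genes and 11.9% of all genes. The difference of changes stayed between 3.54 and 4.51 with each of 12 arrays left out, and passed in 8 of 12. The calls lost were those without TC32 parental replicate 2 or 3, TC71 parental replicate 1 or TC32 clone C4, where the highest adjusted p was 0.0827.

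The other histone genes of the TC32 clones did not pass, but without TC32 parental replicate 1 HIST1H2BD, HIST1H3H and H2AFY2 passed besides HIST2H2BE (HIST1H2BD at 1.115, limma adjusted p = 0.0351). The share of all genes called in that refit is not given here, so the added calls show nothing particular to histone genes. Of the 61, 8 had an unadjusted p under 0.05 (19.8% of all genes did), and the groups were apart in 7 (21.2% of all genes). HIST1H2AM [H2AC17], an H2A gene, read 3.58, 2.19 and 0.47 in clones C1, C4 and CP and 0.37, -0.98 and -2.31 in parental cells. The groups were apart by a small margin and spread widely (3.05 ± 1.01, limma adjusted p = 0.0945). The same gene read 3.44 in TC71 clone C3 but -0.38 and -0.34 in C4A and C5, so single clones of both lines were high.

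HIST1H3H differed by 1.61 in TC32 clones (adjusted p = 0.0813) and HIST1H1C by 1.08 (adjusted p = 0.187), both with overlap. HIST1H1C separated the clones: C4 was at 1.64, C1 at 0.36 and CP at -0.91. HIST1H2BD, HIST1H2BC and HIST1H2BK differed from parental TC32 cells by 0.73, 0.62 and 0.02, and H2AFJ read on both sides of 0 among the clones.

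In TC71 clones no histone gene passed against parental cells, while limma called 139 of all genes (1.09%), and 2 of 61 had an unadjusted p under 0.05 (11.2% of all genes), H2AFV at 0.36 and HIST1H3F at -0.18. The groups were apart in 23 of 61, against 41.2% of all genes. Of these 23, 15 were flat genes, none differing by more than 0.025. HIST1H2AC differed by 0.74 and HIST1H1C by 0.71, both without overlap (adjusted p = 0.643 and 0.626 in limma). HIST1H2BC was at 1.40 in clone C3 and at -0.10 and 0.10 in C4A and C5. HIST1H3F [H3C7] and HIST1H4H were lower with groups apart, by log2 differences of -0.18 and -0.14.

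Set against the 72 h arrays, which share the TC32 line and the compound but not the long selection, 2 histone genes were higher in the TC32 clones and 4 lower. Over all genes limma called 1892 (14.8%), 949 higher (7.44%) and 943 lower (7.4%). Of the 61 histone genes, 18 had an unadjusted p under 0.05 (26.6% of all genes), and the groups were apart in 19 (28% of all genes). This comparison uses the same 72 h and clone arrays as the comparisons above, so its results are not independent of them.

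HIST2H2BE rose a further 1.73 ± 0.47 from 72 h to the clones (limma adjusted p = 0.026), with every clone above every 72 h array. H2AFV, the second H2A.Z gene, rose by 0.59 ± 0.15 (adjusted p = 0.0205), and both of its probe sets were higher (0.50 and 0.67). It read -0.31, -0.27 and -0.54 at 72 h and 0.46, -0.23 and 0.41 in the clones, so clone C4 was only just above the treated arrays.

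HIST1H2BD fell by 1.11 ± 0.33 in limma (adjusted p = 0.0406), its clones at -0.59, -0.03 and -0.68. HIST1H2BK fell by 0.93 ± 0.24 in limma (adjusted p = 0.0203), from 0.15, 0.58 and 0.39 at 72 h to -0.72, -0.14 and -0.82. In both genes every clone was below every 72 h array, and the clones overlapped the parental arrays. H2AFJ fell by 1.24 ± 0.38 (adjusted p = 0.044), with clones at 0.03, -0.84 and -0.11.

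HIST1H4H fell by 0.51 (adjusted p = 0.0242), but the change came from 1 of its 2 probe sets, which differed by -0.99, while the other differed by -0.02. HIST1H2BC differed by -1.20 (adjusted p = 0.0609) and HIST1H1E by 1.22 (adjusted p = 0.0778), both with groups apart. Over the H2B class, 9 of 15 genes were lower in the clones than at 72 h, 7 of them with groups apart (14.3% of all genes were lower with groups apart). Both counts include the near-identical H2B genes that are not separate readings. For the 6 called histone genes the calls rest on single arrays. Without TC32 72 h replicate 2 the called histone gene was H2AFV alone, and without replicate 3 it was HIST1H2BJ alone. Without clone C1 it was HIST2H2BE alone, and without clone CP H2AFY and HIST1H4H were called. The shares of all genes called in these refits are not given here.

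In TC71 clones against the TC71 72 h arrays no histone gene passed (319 of all genes, 2.5%, did), 5 of 61 had an unadjusted p under 0.05 (14.6% of all genes) and the groups were apart in 7 (19.8% of all genes). HIST1H1E was higher by 1.68 ± 0.43 (limma adjusted p = 0.0625), its clones at 0.81, -0.03 and 0.95 above the 72 h arrays at -0.67, -1.35 and -1.28. H2AFY2 [MACROH2A2] and HIST1H4H had groups apart with differences of 0.47 and -0.26.

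Histone supply is known to be coupled to DNA replication, so a list of 51 measured S phase and DNA replication genes was set beside the histone genes. In TC32 at 72 h, 2 of the 51 fell in limma, against 1.07% of all genes. Both encode subunits of ribonucleotide reductase: RRM2 fell by 1.21 (adjusted p = 0.032) and RRM1 by 1.06 (adjusted p = 0.0471). The median of the list was -0.50, with 45 of 51 lower, against 7476 of all 12750 genes. In TC71 the median was -0.37 with 50 of 51 lower, against 4573 of all 12750 genes, and none passed the threshold. From 72 h to the clones 10 of 51 rose in TC32, against 7.44% of all genes (median 0.47, RRM2 by 1.74 and CCNE2, cyclin E2, by 2.24). In TC71 1 of 51 rose (ORC6 by 0.58, median 0.29), where 183 of all 12750 genes rose. Between clones and parental cells the medians were -0.02 in TC32 and -0.03 in TC71, where none passed. In the TC32 clones DBF4 rose by 0.67 and DUT fell by 0.76 in limma (adjusted p = 0.0162 and 0.0207). Of all genes, 3.19% rose and 3.12% fell in that comparison.

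**Figure D5:**
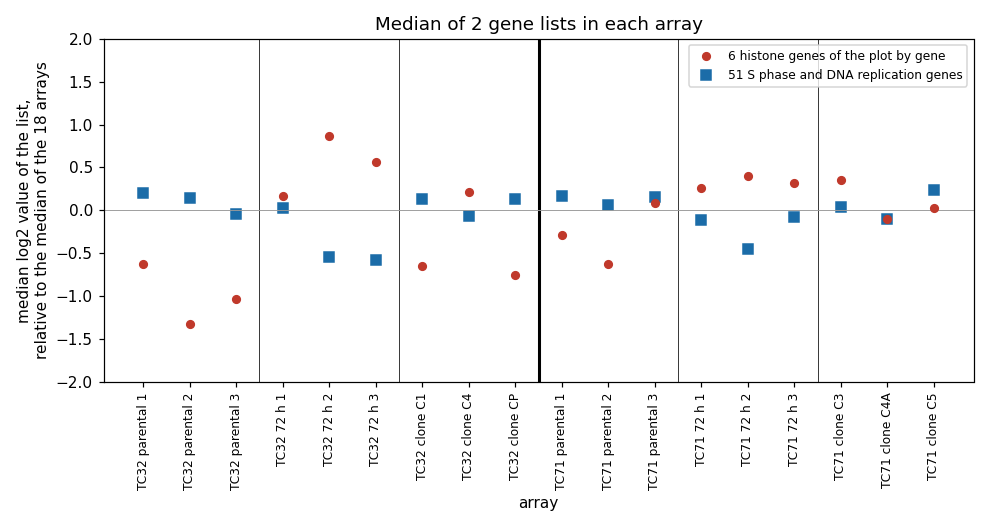
Median relative log2 value in each array of the 6 listed histone genes (circles) and of 51 S phase and DNA replication genes (squares), by line and state. In TC32 72 h replicates 2 and 3 the histone median is 0.87 and 0.57 and the S phase median -0.54 and -0.58; in replicate 1 both are near 0.

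Array by array, the median of the 6 listed histone genes was -0.63, -1.33 and -1.03 in TC32 parental cells and 0.16, 0.87 and 0.57 at 72 h, while the median of the S phase list was 0.21, 0.15 and -0.04 and then 0.03, -0.54 and -0.58. Treated replicate 1 had the lowest histone median of the treated arrays and the S phase median nearest to those of the parental arrays. In TC71 at 72 h the histone medians were 0.26, 0.40 and 0.32 and the S phase medians -0.11, -0.45 and -0.07. The part of cell cycle position in the histone values was not tested.

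Factors that make or handle histone mRNA were put to the same test. Of 14 measured genes of histone transcription and mRNA 3′ processing, none passed at 72 h in either line. SLBP, which binds the histone stem-loop, differed by -0.08 in TC32 and -0.32 in TC71. NPAT, the coactivator of histone genes in S phase, differed by -0.21 and -0.32, and CASP8AP2, a component of the histone locus body, by -0.35 and -0.65. From 72 h to the clones in TC32, 3 of the 14 passed, against 14.8% of all genes: NPAT rose by 0.52 (limma adjusted p = 0.0121), NCBP1, a cap-binding protein, rose by 0.89 (adjusted p = 0.00346), and NFYC, a subunit of the factor that binds CCAAT boxes, fell by 0.52 (adjusted p = 0.0291).

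Among 24 histone chaperone and deposition genes, UBN1, a subunit of the HIRA complex that deposits H3.3, rose by 1.004 at 72 h in TC32 (limma adjusted p = 0.0471). HIRA itself fell by 0.63 in the TC32 clones against parental cells (adjusted p = 0.0159). From 72 h to the TC32 clones 4 of 24 rose in limma, against 7.44% of all genes, the largest being NAP1L4 by 1.03 (adjusted p = 0.007) and CENPA, the centromeric H3 variant, by 0.99 (adjusted p = 0.0144). CHAF1A, the large subunit of the chromatin assembly factor that works at replication forks, rose by 0.50 (adjusted p = 0.0456). None passed in TC71.

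ASF1B, which hands H3 and H4 to other chaperones, differed at 72 h by -0.97 in TC32 and -1.01 in TC71, and NASP, which holds soluble histones, by -0.87 and -0.90. None of these 4 differences passed the threshold (adjusted p from 0.106 to 0.361 in limma).

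Marker genes of other cell types were examined beside the clone results. The summed relative value of 6 leukocyte markers was 3.31, -0.04 and 4.56 in TC32 clones C1, C4 and CP and 5.01, 0.08 and -0.12 in TC71 clones C3, C4A and C5. It lay between -0.07 and 1.03 in the other 12 arrays. PTPRC carried it, with 3.31 in C1, 4.44 in CP and 5.13 in C3. HIST2H2BE read 1.65, 2.07 and 1.78 in C1, C4 and CP. The sum of 5 epithelial markers lay between -0.13 and 1.63 in TC32 parental cells and between -3.35 and -0.48 in the TC32 clones, where KRT18 fell by 3.86 in limma (adjusted p = 0.00515). The other 4 epithelial markers were higher in the mean without passing, but the median difference of the 5 was only 0.004. KRT19 and CDH1 were flat over the arrays (SD 0.017 and 0.016), and KRT8 overlapped between the groups. The remaining marker, EPCAM, read 2.88 in TC32 clone CP, against -0.19 to -0.02 in TC32 parental cells. EPCAM read 3.41 in TC71 clone C3, but also 2.275 in TC71 parental replicate 2 and 2.086, 0.694 and 1.309 in the TC71 72 h arrays. The sum of 6 fibroblast markers was 1, -3.22 and -8.48 in TC32 parental cells, -3.81, -3.81 and -3.91 at 72 h and 1.39, -2.55 and -0.69 in the clones. From 72 h to the TC32 clones LUM rose by 3.67 (limma adjusted p = 0.0229). In the mean 5 of the 6 were higher, but the median difference was only 0.007. COL1A1, COL1A2 and THY1 stayed between -0.033 and 0.047 in the TC32 72 h and clone arrays. COL3A1 went the other way, from 0.305, 0.432 and 0.588 at 72 h to 0.182, -2.139 and -1.63 in clones C1, C4 and CP. In TC71 clone C5 the sum was 4.79, with THY1 at 3.54. The 5 endothelial markers summed to between -0.13 and 0.25. The sum of 8 Ewing sarcoma markers lay between -1.95 and 1.84, and since values are relative, whether the lines express them could not be read. The part of these markers in the histone results was not tested.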

How the data were processed

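RNA of 18 samples was labelled with a 3′ IVT kit and hybridised to Affymetrix Human Genome U133A 2.0 arrays, and the scans were analysed by the authors in GeneSpring GX with default settings, per the labels' protocols and design text. The deposited values are log2 signals, each relative to the probe set's median over the arrays, as read from the values themselves; background correction and summarisation are not given in the sources used here. Both deposited tables held the same values. Of 22277 probe sets, 62 controls, 583 that name several genes and 1258 that name none were left out, as were probe sets of histone genes on chromosomes 13 and 15; genes with several probe sets took their mean, giving 12750 genes. A model of 6 group means was fitted with limma 3.58.1 (R 4.3.3, eBayes defaults, Benjamini-Hochberg over all genes, threshold 0.05, 12 residual and 0.83 prior degrees of freedom) and tested on simulated data. No filter was set, so all 61 histone genes were tested. Depth does not apply to arrays; 3 arrays a group limit the precision. Labels do not say that replicates came from separate cultures, so p-values may measure technical spread.

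The members and gene lists were chosen with earlier results of these data known. Genes named are all histone genes past the threshold, up to 2 in each direction with the largest difference among those whose groups of arrays do not overlap, a set of always-named genes, and the 2 largest called changes of each other list; HIST1H3H, HIST1H2BF, HIST1H2BI and others given for contrast were chosen after their values were seen, and 1 gene is counted but not reported by name here. Alternatives covered normalization, centring, probe set choice, a filter on SD, the eBayes settings, the arrays in the fit, the threshold, the replicate block and arrays left out.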

Additional observations from a re-analysis of the deposited data

Results flagged for a closer look

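The resistant change of HIST2H2BE differed between the lines by 4.162 on the log2 scale in a direct test of the difference, with all 3 TC32 clones above and the TC71 clones overlapping their parental arrays.

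Probe sets that name several histone genes were not used in the comparisons, and 3 of them gave differences above 1 on the log2 scale with groups apart. A probe set shared by HIST2H2AA3 and HIST2H2AA4, H2A genes of the chromosome 1 cluster, differed by 2.086 at 72 h and 1.951 in the resistant clones of TC32 against parental cells, and a second probe set of the same pair by 1.79 and 1.898. HIST2H2AA3 was counted above as a flat H2A gene from the single probe set that names it alone (SD 0.021).  A probe set shared by HIST1H2AD and HIST1H3D differed by 2.363 at 72 h in TC32, by 1.043 at 72 h in TC71 and by 2.102 in the TC32 clones. Another probe set of this pair differed far less in the same comparisons, by 0.629, 0.287 (with overlap) and 0.655. Which gene of each pair carries the signal cannot be told from these probe sets, and the differences were not tested.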

How the results depend on the processing

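Counts of called histone genes moved with several choices, and no called value reversed. Apart from TC71 at 72 h, the counts are given without the share of all genes called in the same setting. They therefore show nothing particular to histone genes. With quantile normalization applied again, TC71 at 72 h gave 3 genes and TC32 clones against 72 h gave 1. Without _x_at and _s_at probe sets, TC32 at 72 h gave 1, TC32 clones against parental 0, TC32 clones against 72 h 2 and the resistant interaction 0, since HIST2H2BE is then not measured. With genes of SD at least 0.1, TC32 at 72 h gave 9, TC32 clones against parental 3, TC32 clones against 72 h 11 and TC71 clones against 72 h 1, with fewer genes in the adjustment. Fitted on the compared groups only, TC32 at 72 h, TC71 at 72 h and TC32 clones against 72 h each gave 1 and the resistant interaction 0. At an adjusted p under 0.01, TC32 at 72 h, TC32 clones against 72 h and the resistant interaction gave 0. With 4 arrays left out (TC32 parental replicate 1, TC71 parental replicate 2, TC71 72 h replicate 2 and clone C4 of TC32), TC32 at 72 h gave 7, TC32 clones against parental 4 and the 72 h interaction 2. With single arrays left out, counts ran from 0 to 8 for TC32 at 72 h, 1 to 4 for TC32 clones against parental, 1 to 5 for TC32 clones against 72 h, 0 to 1 for TC71 clones against 72 h and 0 to 1 for the resistant interaction. With the replicate block TC71 at 72 h gave 3 and TC32 at 72 h 4. Same-numbered arrays correlated by 0.19, 0.01 and 0.33 in TC32 and -0.02, 0.04 and 0.04 in TC71. The closest 72 h array had the same number for replicates 1 and 3 of TC32 and replicate 2 of TC71. Whether the numbers pair the samples cannot be told from these values. The causes were not tested. Across all genes, the calls of TC71 72 h minus parental moved from 19 to 476 with quantile normalization, 290 with compared groups only and 447 with the block.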
